A study of Mus musculus with 12 samples.

Results

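Cytosolic ribosomal proteins were examined at the mRNA level in HT22 cells, an immortalised mouse hippocampal neuronal cell line. The members were chosen by gene name alone, as genes named Rpl or Rps with a number, Rplp0, Rplp1, Rplp2, Rpsa and Rpl37rt, and 83 of the 25239 genes of the expression table met that rule. Of these, 51 carry the names of large-subunit (Rpl) and 32 of small-subunit (Rps) proteins or their close paralogs. Rps4l, counted with the Rps genes, has no coding transcript in the annotation used. In the m6A peak table, 1 of 2643 peaks lay on a member gene. Gene products with other names, such as Rps3a1 and Fau, fall outside the name rule.

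The series holds 12 libraries of wild-type HT22 cells. Cells treated with 800 μM mesaconitine (MA), a diterpenoid alkaloid of Aconitum, for 72 h gave 3 input and 3 anti-m6A immunoprecipitated (IP) libraries, and control cells with no MA gave 3 of each. The expression table gives 1 value per gene, the base mean, which does not separate MA from control. It is the average over the compared libraries of read counts divided by the size factor of each library. Whether IP libraries were among those compared is not stated in the sources used here, so the base mean may not be mRNA abundance alone. The peak table gives reads pooled over the 3 libraries of each group. Values per library were therefore not analysed here, no error between replicates can be attached, and no test between MA and control was made. The deposited fold changes between the groups are the authors' own comparison and were not used here, so whether any member's mRNA differed between MA and control is not reported. Peak reads summed to 288659 in control input, 267002 in control IP, 214778 in MA input and 359889 in MA IP.

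Each ribosome holds a small subunit, which reads the mRNA, and a large subunit, which forms peptide bonds, and each subunit is built from ribosomal RNA and a fixed set of proteins, most of them present as a single copy and the stalk proteins as several. Their mRNAs are short, abundant and carry a run of pyrimidines at the start (the 5′ terminal oligopyrimidine motif), through which the mTOR pathway controls their translation. Mammalian genomes carry many processed copies of these genes, made by reverse transcription of their mRNAs. N6-methyladenosine (m6A) is a methyl mark on adenosines of mRNA, commonly found near stop codons and in long exons.

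The neuronal label was checked against marker genes. Of 12 neuronal markers, 7 were listed at 0, among them Map2, Snap25, Dcx and Gap43, while Syn1 had a base mean of 710.0 and Tubb3 of 473.4. Astrocyte markers stayed at or below 5.80, microglial markers at or below 64.3 and oligodendrocyte markers at or below 48.0.

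The sequences shown next are from members whose near-identical copy has an entry of its own in the table, to show how little the gene and its copy differ. Capitals mark the differing base, positions are counted from the A of the start codon, and the build is GRCm38. In Rpl26, which sits by the peptide exit tunnel, the stretch is chr11:68903284-68903312 on the plus strand, and in its copy Gm15772 it is chr5:3236704-3236732 on the plus strand, with the substitution T288C. The coding sequences differ at 1 other base, C177T.
Rpl26: ggcacaaccgtccaTgtgggcatccaccc
Gm15772: ggcacaaccgtccaCgtgggcatccaccc
Rpl34 and its copy Rpl34-ps1 differ by T132C and C318G, of which the former is shown at chr3:130729070-130729098 on the minus strand and chr6:71124727-71124755 on the plus strand.
Rpl34: aaagcacctaaatcTgcatgtggcgtgtg
Rpl34-ps1: aaagcacctaaatcCgcatgtggcgtgtg
Rpl37 and Rpl37rt, both members, differ in their coding sequences by G249A alone, shown at chr15:5118577-5118605 on the plus strand and chr5:115103259-115103287 on the minus strand.
Rpl37: cgtgagggaacaacGccgaaacccaagag
Rpl37rt: cgtgagggaacaacAccgaaacccaagag
The coding sequences of Rps27 and Rps27rt are identical over 255 bases, as at chr3:90213273-90213301 and chr9:114982673-114982701, both on the minus strand.
Rps27: ctcgcaaaggatctccttcatccctctcc
Rps27rt: ctcgcaaaggatctccttcatccctctcc

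By base mean, ribosomal protein genes were among the highest in HT22 cells. The members made up 6.15% of the summed base mean of all genes, and the 78 mitochondrial ribosomal protein genes, which serve the separate ribosome of mitochondria, made up 0.260%. The median base mean was 21291 over the 83 members, 528 over the 16178 genes above 0 and 1064 over the mitochondrial ribosomal genes. Of the members, 66 were in the highest 10% of genes above 0, and 59 had a base mean of 10000 or more, where 749 genes stood in all. Per kilobase of transcript, 43 of the 100 highest genes were members. The middle members lay close together, with quartiles of 8899 and 40291, a 4.53-fold span, against a 162-fold span over all genes above 0, 5.38-fold over the other translation genes and 2.67-fold over the mitochondrial ribosomal genes.

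Of the 10 highest members, 8 belonged to the large subunit, as did 51 of all 83. Rpl5, which carries the small ribosomal RNA of the large subunit into the ribosome, had a base mean of 159439. Rps6, the substrate of the ribosomal S6 kinases, had 140486. Rpl4, which lines the exit tunnel, had 123358, and Rps24, needed to process the small-subunit RNA, had 93041. Rpl19, Rpl7 and Rpl13a had 87400, 87175 and 82958. The stalk proteins Rplp2 and Rplp1, which recruit elongation factors, had 82465 and 64167, and Rpl23a, at the tunnel exit, had 67372.

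Dividing by transcript length changed the order. Rplp2 was then the highest member with 180448 per kilobase, followed by Rplp1 with 137109 and Rpl23a with 120307. With entries at near-identical copies added, Rpl26 came first at 289020 per kilobase, above Rplp2 at 185248. Rplp0, the scaffold to which Rplp1 and Rplp2 bind, had 32033 per kilobase. The 3 stalk proteins differed 5.63-fold from Rplp2 to Rplp0. Rpsa, also known as the laminin receptor, had 21014 per kilobase, and Rps27a, which is made as a fusion with ubiquitin, had 16458. The level of Rpl19 per kilobase depended on the transcript chosen, with 43203 for the longest coding transcript and 116223 for the longest curated one.

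**Figure D1:**
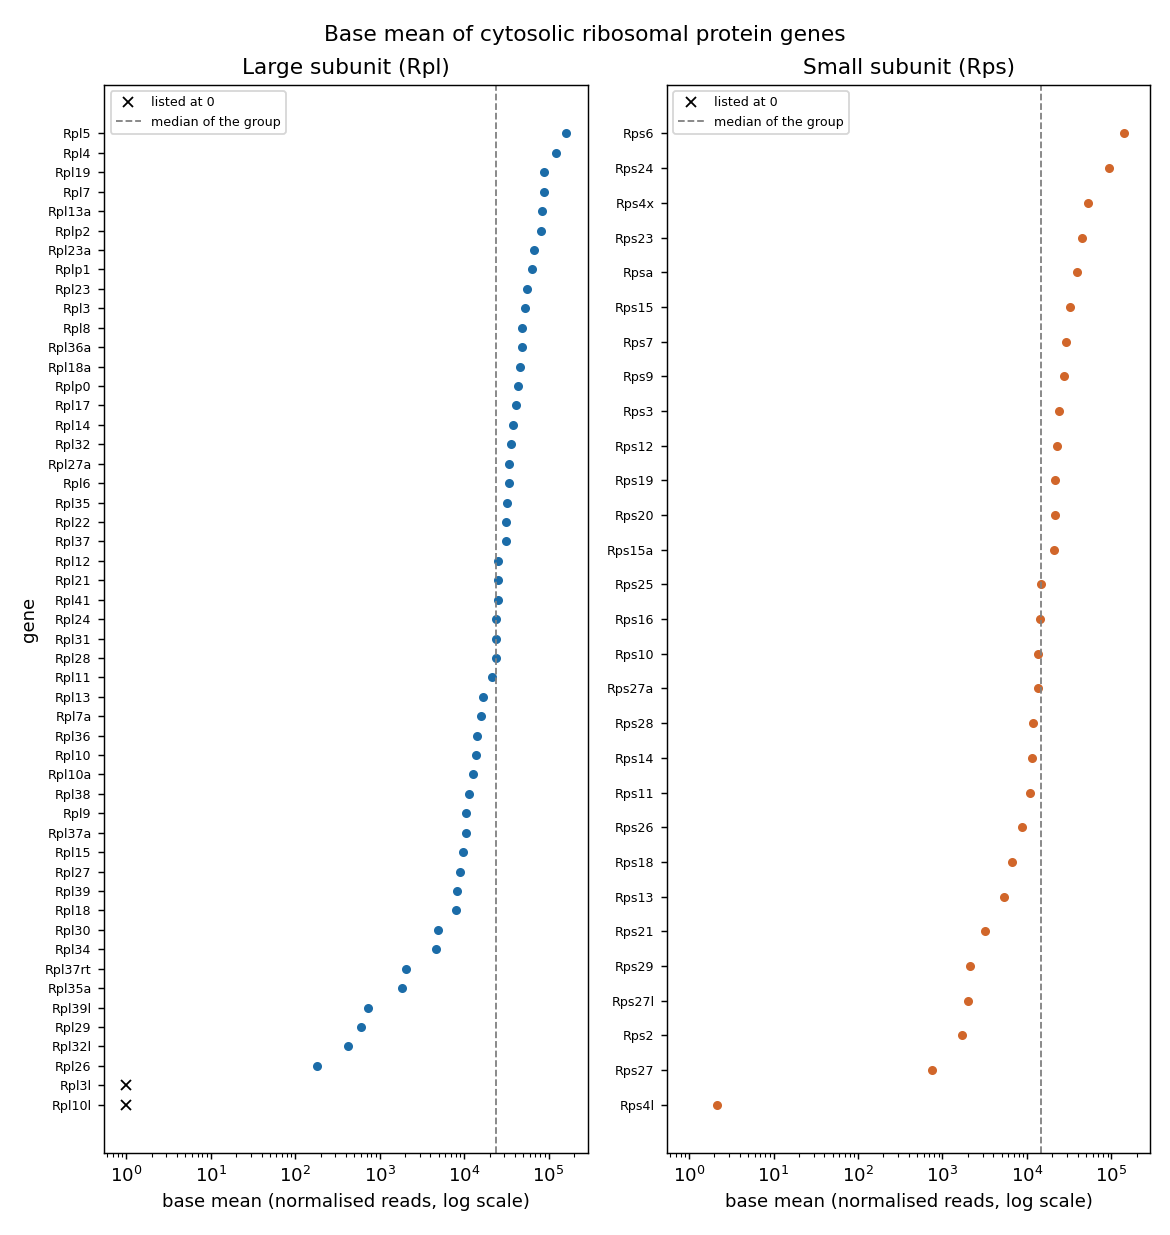
Base mean on a log axis for the 51 large-subunit genes (left) and 29 of the 32 small-subunit genes (right), sorted by level, with the median of the whole group as a dashed line and genes listed at 0 as crosses drawn at 1. The quartiles over all members are 8899 and 40291, and Rpl26, Rpl29 and Rps27 sit far below most of the others.

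Large- and small-subunit genes had overlapping levels. The median base mean was 24141 over the 51 Rpl genes, with quartiles of 9280 and 44748, and 14590 over the 32 Rps genes, with quartiles of 8274 and 29741. Per kilobase, the medians were 23289 and 20374, a ratio of 1.14, and the quartiles were 10930 and 50570 for Rpl against 8512 and 36661 for Rps. The ratio was 1.65 with no division by length. The groups include 7 paralogs, Rpl3l, Rpl10l, Rpl32l, Rpl39l, Rpl37rt, Rps4l and Rps27l. Without them, the medians per kilobase lay further apart, with 31393 over 46 Rpl genes and 21271 over 30 Rps genes. Since each gene has 1 pooled value, the ratio has no replicate error, and whether it differs from equality was not tested.

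The 10 lowest members comprised 5 paralogs and 5 constituents of the ordinary ribosome. Rpl3l, the striated-muscle paralog of Rpl3, and Rpl10l, a paralog of Rpl10 used in the testis, were listed at 0, while Rpl3 and Rpl10 had base means of 52445 and 13800. Rps4l, listed with a non-coding transcript, had 2.16, against 52337 for Rps4x. Rpl32l had 423, against 35604 for Rpl32, and Rpl39l, known from male germ cells, had 724, against 8179 for Rpl39, an 11.3-fold difference. Rpl37rt had 2072, against 31068 for Rpl37, a 15.0-fold difference between sequences that differ at 1 coding base. Rps27l, a paralog of Rps27 that p53 induces, stood at 2010, above Rps27 at 754, but below the 7761 that Rps27 reached with the entry at its identical copy added. Per kilobase of the longest transcript, Rps27 was above Rps27l, with 2179 against 819, and on the longest curated transcript Rps27l was above Rps27, with 3419 against 2179.

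Beside Rps27, the constituents of the ordinary ribosome among the 10 lowest were Rpl26, Rpl29, Rps2 and Rpl35a. Rpl26 had 183, Rpl29 had 595, Rps2 had 1701 and Rpl35a had 1817. The genome holds, outside the gene itself, 6 near-identical copies of Rpl26, 28 of Rpl29, 29 of Rps2 and 14 of Rpl35a. A copy was counted where at least 80% of the coding sequence matched with at least 95% identity. Over all members 599 copies were found, the median was 5, and 75 of 83 members had at least 1. Rpl21, at 56, had the most and its base mean was 25311. Across the 83 members, which share the same libraries, Spearman's rho of base mean with the number of copies was 0.13. Of the 8 members with no copy, Rpl8 and Rps3 had base means of 48659 and 24224. The part that the copies have in any level was not tested.

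For 4 members, an entry of the table at a near-identical copy had a higher base mean than the gene itself. Gm15772, at chr5:3236431-3236868 and 99.5% identical to the Rpl26 coding sequence, had 156754, which is 854 times the 183 of Rpl26. With it added, Rpl26 came to 156938 and moved from rank 80 to rank 3 of the 83 members. Rps27rt had 7007, 9.29 times Rps27, from a copy with no coding difference. Rps18-ps4 had 19885, 3.02 times the 6576 of Rps18, whose product lies in the head of the small subunit. Rpl34-ps1 had 8832, 1.89 times the 4664 of Rpl34. The Rps18 copy runs opposite to the strand of its annotated entry and fills 42.9% of it.

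Elsewhere the copy entry was the lower of the pair but still high. Rps6-ps4, whose 750 bases are identical to the Rps6 coding sequence, had 35345, against 140486 for Rps6. Rpl14-ps1 had 19635, against 38400 for Rpl14. Gm5148, identical to Rps23 in its coding sequence, had 6053, and Rps23rg1 had 4314, against 45353 for Rps23. Both Rps23 copies run opposite to the strand of their annotated entries, filling 35.6% and 26.7% of them. In all, 24 entries with a base mean above 0 had a copy filling at least 25% of their transcript, and they belonged to 19 members. Added together, members and these copy entries made up 6.82% of the summed base mean. This sum includes the 3 entries whose copy runs on the opposite strand. Reads from identical stretches cannot be assigned to a gene or to its copy by sequence, so levels of these members are uncertain, and whether the copies are transcribed was not tested.

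**Figure D2:**
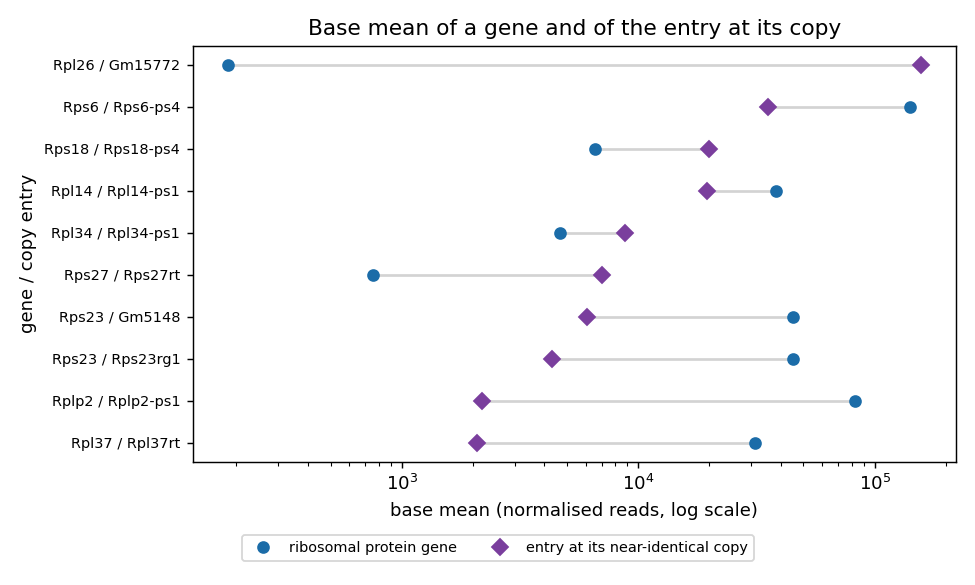
Base mean on a log axis of a ribosomal protein gene (circles) and of the table entry at its near-identical copy (diamonds), for 10 pairs with an entry of at least 1000, with a grey line joining each pair. The copy entry stands to the right of its gene for Rpl26, Rps18, Rpl34 and Rps27 and to the left for the others.

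Across members, a median of 50.9% of the 50-base stretches of the transcript also occurred in an annotated transcript of another gene. The shares ran from 0 for Rpl39l and Rpl3l to 99.7% for Rps27. Rpl12 followed at 99.3%, with a base mean of 25333. The medians were 49.2% for Rpl and 51.5% for Rps genes. In the 40 members that shared under 50%, the ratio of the Rpl to the Rps median per kilobase was 1.39.

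The start sites were read for the pyrimidine motif, in windows of RefSeq (GRCm38.p6) around the annotated start. A promoter entry was found for 62 of the 83 members. The pentamers were CTTTT as well as CTTTC, then CTTCC as well as CTCTT, and lastly CTTCT. They were searched on the sense strand only, beginning within 10 bases of an annotated start. A gene with overlapping matches counted as 1, and a match at any annotated start of the gene was enough. The number of starts per gene was not taken into account. At least 1 pentamer was found in 30 of 62 members (48.4%), against 17.2% of the 26963 other genes with an entry and 16.03% of the 574 other genes with a base mean of 10000 or more. The share was 18 of 39 for Rpl and 12 of 23 for Rps genes. Of the mitochondrial ribosomal genes, 13 of 69 (18.8%) held a pentamer, and of the other translation genes known for this motif, such as Eef1a1 and Tpt1, 6 of 12 did. Within 25 bases of the start the share was 71.0% for members and 34.1% for the other genes. Members with and without a pentamer within 10 bases spanned similar levels, with medians of 22021 and 18933.

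The windows of the 3 highest and 3 lowest members that held a pentamer are shown to let the motif be compared across the range of levels. Each holds 13 bases before an annotated start of the gene and 17 from it onward. Capitals mark all pentamers that begin within 10 bases of the start, and overlapping ones run together. They lie at chr4:86857351-86857380 (minus strand), chr14:24490665-24490694 (plus), chr7:45128729-45128758 (minus), chr10:20208426-20208455 (plus), chr16:10170215-10170244 (plus) and chr3:90213632-90213661 (minus), in the order printed.
Rps6: gcggaagtcgggcCTCTTTTtcgtgacgcc
Rps24: cgcgctggggtcCTTCCttgcgcgttgata
Rpl13a: aaccctgcgacaagacctcctcCTTTCcca
Rpl32l: ataaaatgaccagCTTCTTCCttggtgctg
Rpl39l: cccaggcCTTTCcggatttccggtggtcgc
Rps27: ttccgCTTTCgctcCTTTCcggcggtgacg
The pentamer nearest the start began at it in Rps6 and in Rpl32l, and it began 6 bases before the start in Rpl39l and 9 bases after it in Rpl13a.

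Few of the m6A peaks in the table used lay on ribosomal protein genes. The table was made for the comparison of MA with control and is a partial list of the m6A peaks called in these cells, so peaks outside it were not analysed here, and each share and limit given next is a share of genes listed in it, not of genes with m6A. Of the 81 members above 0, 1 carried a listed peak (1.23%, exact 95% binomial interval 0.0313% to 6.69%), against 13.4% of the 16178 genes above 0. No listed peak lay within the span of any other member, and none was assigned to an entry at a copy alone. The 68 peaks assigned to several genes were not searched for entries at copies. Peaks were found on 6 of 78 mitochondrial ribosomal genes and on 1 of 19 other translation genes. Of the 75 members with a base mean of 1000 or more, 0 had a listed peak, for which the exact 95% upper limit is 4.80% and 3 counts of the total allow up to 4%.

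The share of genes with a peak depended on level and length in the rest of the transcriptome too. It was 19.2% among other genes with a base mean from 1000 to 10000 and 4.88% (6 of 123) among those of 30000 or more. At a base mean of 1000 or more it was 2.17% (5 of 230) for transcripts of up to 1000 bases and 29.2% for those over 5000 bases. The median transcript length was 780 bases over members and 2981 over genes above 0. Among other genes with a base mean of 1000 or more and up to 1500 bases, 25 of 585 had a peak (4.27%, exact 95% binomial interval 2.78% to 6.24%), and among such members 0 of 63 did, with an exact 95% upper limit of 5.69% and 3 counts of the total allowing up to 4.76%. A difference from other short, abundant mRNAs was thus not detectable with this number of genes.

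**Figure D3:**
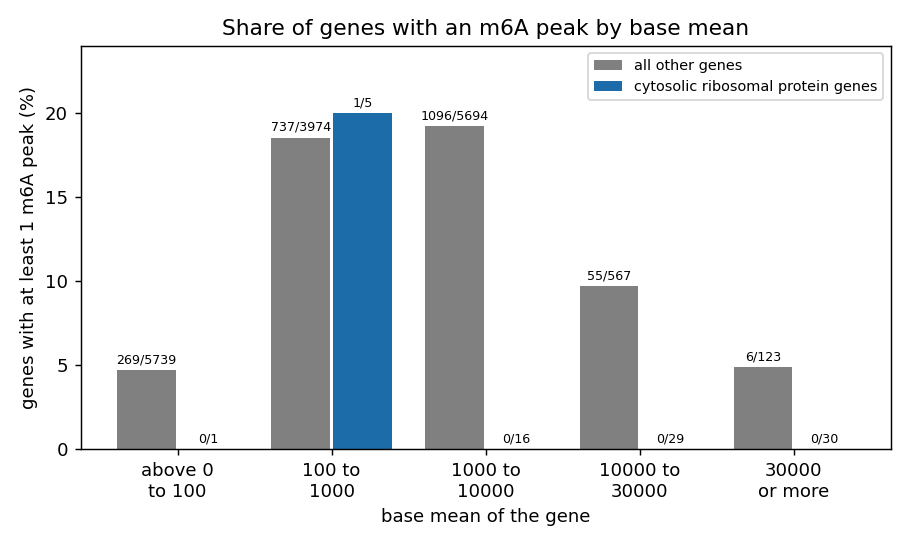
Share of genes with at least 1 m6A peak, in percent, by base mean, for cytosolic ribosomal protein genes (blue) and all other genes (grey), with the number of genes above each bar. The other genes fall from 19.2% at 1000 to 10000 to 4.88% at 30000 or more, and the only member peak is in the bin from 100 to 1000, where 5 members stand.

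The single peak was on Rpl39l, at chr16:10174557-10174606 on the plus strand. Its 50 bases lie in the last of 3 exons of NM_026594.2, in the 3′UTR, starting 92 bases after the last coding base and ending 305 bases before the transcript end. The last 30 bases are shown with the polyadenylation hexamer AATAAA in capitals, at chr16:10174577-10174606.
Rpl39l: agttcattcagcagttcagtAATAAAtatg
The hexamer, searched on the transcribed strand, occurs in 22.1% of 2642 peaks and in 2.01% of the 895 peaks of 50 bases. Its search was not among those planned, so these shares do not measure how unusual the Rpl39l peak is. GGAC, the core of the common m6A consensus, was not found on the transcribed strand of the Rpl39l peak. It occurs in 47.8% of all peaks and in 18.7% of those of 50 bases.

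The Rpl39l peak was among the most deeply covered of all. It held 1464 reads in control input, 1256 in control IP, 1160 in MA input and 1495 in MA IP, and it ranked 2 or 3 of 2643 peaks in each. Intervals for counting error only, exact Poisson at 95%, were 1390 to 1541, 1187 to 1327, 1094 to 1229 and 1420 to 1573. Reads of pooled libraries do not show how the 3 libraries varied.

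**Figure D4:**
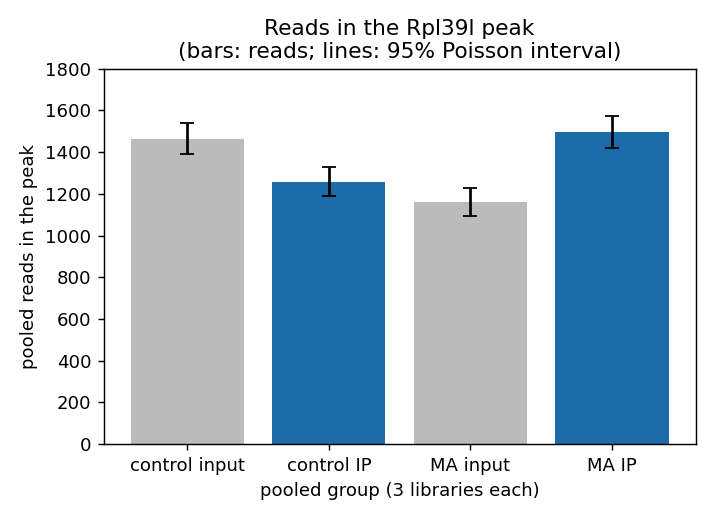
Reads in the Rpl39l peak in the 4 pooled groups, with exact 95% Poisson intervals. Reads were lowest in MA input (1160) and highest in MA IP (1495), and the bars are not scaled for the depth of each group.

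IP reads did not exceed input reads in either condition when each was scaled by its total over all peaks. In control the scaled IP reads were 0.928 times the input reads (95% interval 0.859 to 1.001), and in MA they were 0.769 times (0.712 to 0.831). Because the totals over peaks were set equal, a ratio near 1 is that of an average peak, and it is no absolute enrichment. Of all peaks, 37.3% had a lower scaled ratio than the Rpl39l peak in control and 13.2% in MA. Scaled IP was below input in both conditions in 220 peaks (8.32%). Without scaling, the ratios were 0.858 and 1.29.

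The direction of the change from control to MA in the Rpl39l peak depended on this scaling. On the log2 scale the change of IP over input was -0.27 (95% interval -0.43 to -0.11, counting error only) with scaling by totals and 0.59 (0.43 to 0.74) without, so no direction is given. The unscaled change, 1.502-fold, lay at the threshold of 1.5-fold, and the scaled change did not pass it. With scaling, 29.5% of all peaks passed it with MA higher and 23.5% with MA lower. The median log2 change over all peaks was 0.05 with scaling by totals and 0.90 without, above the Rpl39l value in both. Of all peaks, 35.7% had a lower change than the Rpl39l peak with scaling by totals and 36.2% without. For input reads scaled by totals, MA over control was 0.09 on the log2 scale (-0.02 to 0.20), and without scaling it was -0.34 (-0.45 to -0.22), so here too the direction depended on the scaling. Both were short of 1.5-fold, which, with scaling, 10.3% of peaks passed with MA higher and 16.3% with MA lower.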

How the data were processed

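RNA of HT22 cells was measured by MeRIP-seq in 3 input and 3 IP libraries from MA-treated and from control cells. The authors enriched polyadenylated RNA, fragmented it, kept part as input, precipitated the rest with an anti-m6A antibody, and built stranded libraries with molecular identifiers. Per the labels and methods, reads were aligned to mm10 with HISAT2, quantified with StringTie and compared with DESeq2, and peaks were called with exomePeak2. Tool versions and the libraries behind the base mean are not given in the sources used here.

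As deposited, the base mean is a signal: read counts scaled by size factors and averaged over libraries. Peak reads were deposited as raw counts, summed within each group. The other columns hold the authors' fold changes, standard errors, statistics and p-values between MA and control, and were not used. The number of columns of single libraries left out is 0.

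Members were found by name, and all 83 matched RefSeq symbols (GRCm38.p6), as did 25009 of 25239 genes. Length is that of the longest coding transcript, or of the longest transcript where none is coding. Copies were searched with blastn 2.17.0 (word size 16) from the curated coding sequence. An entry belongs to a copy where its exons cover at least 80% of it. IP over input used scaled reads plus 0.5, and a change was called past 1.5-fold. Intervals cover counting error only. That of the log2 change was tried on simulated Poisson counts, the error it assumes. The simulation held no variation between libraries, so it cannot show how the interval would hold for replicates. Python 3.11.15, pandas 2.3.3 and scipy 1.17.1 were used.

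Genes named in the text are the members with a peak, the 10 highest and 10 lowest by base mean, the stalk genes, Rpsa, Rps27a and the paralogs. Other members are named where copies, shared stretches or level per kilobase set them apart, chosen after their values were seen. Members and lists were chosen with earlier results of these data known. Single values of a few genes are not reported here, though these genes stay in the counts and medians.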

Additional observations from a re-analysis of the deposited data

How the results depend on the processing

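The tables hold pooled values, so leaving out a library was not possible. No paired analysis was possible because the columns carry no single replicates. The median base mean of members was 22189 over those at 10 or more and 22879 with the copy entries added. The Rpl to Rps ratio was 1.65 with no division by length, 1.42 per coding length, 1.39 in members sharing under 50% of their stretches, 1.33 with curated transcripts and 1.23 with copy entries added, the last 2 chosen after seeing the data, as was adding copy entries to the median. It stayed above 1 in all of these. For the Rpl39l peak, log2 IP over input was -0.22 in control without scaling and -0.22 with median-peak scaling. In MA it was 0.37 without scaling, a reversal, and -0.65 with median-peak scaling. The change from control to MA was 0.59 without scaling, a reversal, and -0.43 with median-peak scaling. The log2 change of input reads was -0.34 without scaling, a reversal, in an alternative also added after seeing the data. The reversals follow from the unequal totals of the 4 columns. Over all peaks, 1691 were past 1.5-fold with MA higher and 204 with MA lower without scaling, 645 and 774 with median-peak scaling, which turns the excess of MA higher (780 against 622) around, 471 and 363 past 2-fold, and 470 and 407 where each column held at least 20 reads. The pentamer share was 71.0% within 25 bases. With a pseudocount of 5, the peaks past 1.5-fold were 732 with MA higher and 592 with MA lower.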

Other observations

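Among ribosomal proteins whose genes carry other names, Rps3a1 and Fau stood above the members' median base mean of 21291. Rps3a1 had a base mean of 77275, which would place it in the range of the 10 highest members. Fau, which encodes a ribosomal protein fused to a ubiquitin-like protein, had 29093. The paralogs Rpl7l1, Rpl36al and Rpl22l1 had 6684, 6519 and 528, all below the members' lower quartile of 8899.

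Among 19 other translation genes known for a pyrimidine start, the median base mean was 33769. Elongation factors Eef2 and Eef1a1 had 159196 and 153525, and the poly(A)-binding protein Pabpc1 had 146109. Hnrnpa1 was the lowest, with 2049. Gapdh, a glycolytic enzyme that is also abundant and whose mRNA has many processed copies, had 893, against 54350 for Actb, and was chosen after its value was seen.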
